A study of Mus musculus with 2 samples.

Results

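The erythroid regulators and membrane genes Gata1, Klf1, Tal1, Nfe2, Epor, Alas2, Ahsp and Slc4a1 were followed in limb tissue of mouse embryos. They were chosen by symbol, through the Ensembl gene identifier without its version, in the gene and transcript tables of both libraries. Of the 8 genes listed, 7 were matched by symbol among 43346 Ensembl gene rows. Ahsp had no entry under that symbol in the annotation used for naming, so it was not analysed here. Whether it was expressed is therefore not known. The study profiled total RNA longer than 200 nt from limb of strain B6NCrl embryos of mixed sex at embryonic day 10.5, with 10 ng of RNA and added spike-in RNAs in each library. There was 1 group of 2 biological replicates, and no treatment or mutant: 69 embryos were pooled for replicate 1 and 51 for replicate 2. The labels call the tissue limb without saying forelimb or hindlimb. Expected counts, the estimated reads per gene, totalled 40509328 in replicate 1 and 43983028 in replicate 2, and the 7 genes held 0.0192% and 0.0158% of the counts of Ensembl genes.

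Red cells in an embryo of this age are mostly primitive erythroid cells, which come from the yolk sac and are still nucleated at this stage. They mature in the circulation, so they reach the limb bud through its vessels. GATA1 and TAL1 sit together at regulatory elements of erythroid genes, in a complex with LMO2, LDB1 and an E protein, while KLF1 binds CACC-type sequences and NFE2 pairs with small MAF proteins. These factors act on genes that make a red cell: the erythropoietin receptor EPOR, which carries survival signals, the heme enzyme ALAS2 and the membrane transporter SLC4A1. Gata1, Tal1 and Nfe2 also serve megakaryocytes, and Tal1 serves the endothelium and blood progenitors.

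Promoter sequences are shown first because the genes share regulators that act through short DNA words. They came from RefSeq on GRCm38.p6, which matched 5 of the 7 genes and gave 2 starts for Tal1. Each run gives up to 250 bases before the RefSeq start, read 5′ to 3′ along the gene, and capitals mark a GATA word (NGATAN with A or T as its first letter and A or G as its last, on either strand). For Klf1 and Alas2, 54 and 42 bases next to the start were left out because they lie in the first exon of the annotated transcript.
Gata1 promoter, chrX:7967911-7968160, minus strand: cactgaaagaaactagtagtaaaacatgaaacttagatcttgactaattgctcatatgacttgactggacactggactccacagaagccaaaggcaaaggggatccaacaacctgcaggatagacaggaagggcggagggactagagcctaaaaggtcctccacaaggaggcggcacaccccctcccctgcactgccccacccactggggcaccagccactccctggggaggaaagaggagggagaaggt
Klf1 promoter, chr8:84901732-84901927, plus strand: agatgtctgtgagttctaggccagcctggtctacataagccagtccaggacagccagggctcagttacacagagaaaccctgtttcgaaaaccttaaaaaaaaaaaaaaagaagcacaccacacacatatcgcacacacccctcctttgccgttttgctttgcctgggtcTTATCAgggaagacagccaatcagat
Tal1 upstream promoter, chr4:115056176-115056425, plus strand: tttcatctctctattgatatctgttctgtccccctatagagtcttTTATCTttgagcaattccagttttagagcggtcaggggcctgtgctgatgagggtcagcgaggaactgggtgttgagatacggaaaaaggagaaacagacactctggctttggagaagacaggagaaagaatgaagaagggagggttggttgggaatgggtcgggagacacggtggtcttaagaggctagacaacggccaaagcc
Tal1 inner promoter, chr4:115057561-115057810, plus strand: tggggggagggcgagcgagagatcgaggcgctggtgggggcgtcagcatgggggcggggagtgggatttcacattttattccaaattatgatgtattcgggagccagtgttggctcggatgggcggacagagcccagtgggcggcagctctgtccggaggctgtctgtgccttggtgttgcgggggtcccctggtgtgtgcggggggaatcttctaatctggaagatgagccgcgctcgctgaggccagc
Epor promoter, chr9:21963577-21963826, minus strand: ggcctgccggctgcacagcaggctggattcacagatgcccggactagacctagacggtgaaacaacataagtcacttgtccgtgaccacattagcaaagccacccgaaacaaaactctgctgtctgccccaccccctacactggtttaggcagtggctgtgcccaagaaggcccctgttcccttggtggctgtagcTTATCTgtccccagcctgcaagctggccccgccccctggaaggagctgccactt
Alas2 promoter, chrX:150547167-150547374, plus strand: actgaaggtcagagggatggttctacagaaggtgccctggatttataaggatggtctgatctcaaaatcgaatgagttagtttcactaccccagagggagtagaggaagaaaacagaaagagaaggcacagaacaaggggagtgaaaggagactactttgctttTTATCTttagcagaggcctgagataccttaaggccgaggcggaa

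A GATA word stood in 4 of these 6 promoters, and 26.5% of 32851 RefSeq promoter windows of 250 bases held at least 1. It began at position -80 from the RefSeq start in Klf1, -205 in the upstream Tal1 promoter, -54 in Epor and -86 in Alas2. The window of Gata1 and that of the inner Tal1 promoter held none of the 4 words. The word CCNCNCCC, a loose form of the CACC element searched on both strands, was counted 3 times for Gata1 and 4 times each for Epor, Alas2 and the inner Tal1 promoter, with overlapping matches counted separately. The 4 matches of Alas2 touch the bases left out above. Klf1 and the upstream Tal1 promoter had none, and 45.9% of all windows held at least 1. The NFE2-type word TGANTCA was in none of the 6 windows and in 6.75% of all windows. A match of letters is no evidence of binding, and no match says only that these letters are not in the window.

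All 7 genes were found in both pools, each at 1 TPM or more (a level scaled for gene length and for the library's total), whereas 55.2% of 21474 protein-coding genes reached that level in both. Their levels spanned a 30.6-fold range. The median over the 7 genes was 5.84 TPM, below the median of 21.3 TPM over expressed protein-coding genes. The enzyme and the transporter were the highest and the transcription factor Tal1 was the lowest.

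**Figure D1:**
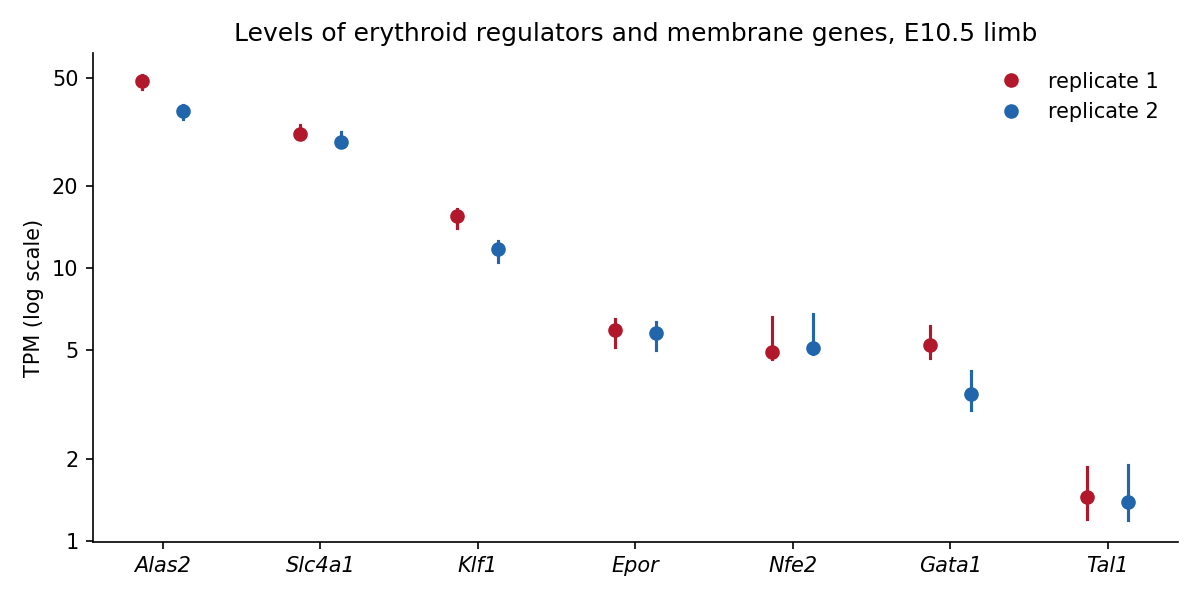
TPM (log scale) of 7 erythroid genes in replicate 1 (red, left of each pair) and replicate 2 (blue). Points are the deposited TPM and lines the interval given in the deposited tables, and the order runs from Alas2 at 43.2 TPM on average to Tal1 at 1.41 TPM.

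The transcription factors came to very different levels. Gata1 (ENSMUSG00000031162.10, chromosome X, 7959260 to 7978071, minus strand), the zinc finger factor that erythroid cells need to mature, was at 5.23 TPM in replicate 1 and 3.45 TPM in replicate 2, from 248 and 173 expected counts. Its mean of 4.34 ± 1.26 TPM (SD, n = 2; ± marks an SD of 2 libraries throughout) lay at percentile 15.7 of expressed protein-coding genes. Replicate 1 was the higher pool for Gata1, and the intervals of the deposited tables (4.67 to 6.13 TPM in replicate 1, 3.03 to 4.20 TPM in replicate 2) did not overlap.

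Klf1 (ENSMUSG00000054191.7, chromosome 8, 84901928 to 84905291, plus strand), the erythroid Krüppel-like factor that switches on red cell genes including adult beta-globin, was the most abundant of the 4 factors. It was at 15.6 TPM in replicate 1 and 11.7 TPM in replicate 2, from 597 and 468 counts, a mean of 13.7 ± 2.73 TPM. Replicate 1 was again higher, with intervals apart at 14.1 to 16.5 TPM and 10.5 to 12.6 TPM. Klf1 exceeded Gata1 2.98-fold in replicate 1 and 3.40-fold in replicate 2.

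Nfe2 (ENSMUSG00000058794.8, chromosome 15, 103248212 to 103258403, minus strand), the p45 subunit that binds DNA with small MAF partners, was at 4.93 TPM in replicate 1 and 5.09 TPM in replicate 2, from 191 and 213 counts. Tal1 (ENSMUSG00000028717.8, chromosome 4, 115056426 to 115071755, plus strand), a helix-loop-helix factor that starts blood formation, was at 1.44 TPM in replicate 1 and 1.38 TPM in replicate 2, from 130 and 144 counts. The pools were close for both genes, with overlapping intervals, and Tal1 lay at percentile 1.68 of expressed protein-coding genes.

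The receptor Epor (ENSMUSG00000006235.5, chromosome 9, 21958897 to 21963506, minus strand), through which erythropoietin keeps erythroid precursors alive, was at 5.92 TPM in replicate 1 and 5.76 TPM in replicate 2, from 273 and 277 counts. Its mean of 5.84 ± 0.113 TPM made it the middle member. The pools overlapped within the deposited intervals.

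Alas2 (ENSMUSG00000025270.9, chromosome X, 150547375 to 150570638, plus strand), which catalyses the first step of heme synthesis in red cells, led the group at 48.8 TPM in replicate 1 and 37.6 TPM in replicate 2, from 2366 and 1868 counts. Its mean of 43.2 ± 7.91 TPM lay at percentile 68.5 of expressed protein-coding genes. Replicate 1 was higher, with intervals of 45.5 to 51.1 TPM and 35.2 to 39.7 TPM that did not overlap. Apex2, on the opposite strand, spans all of Alas2 in the annotation (150519519 to 150589868). It was at 27.2 and 29.99 TPM in replicates 1 and 2. Whether the counting used strand is not given in the sources used here, and overlap of the exons was not examined. Reads that fit both genes therefore cannot be assigned with certainty.

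Slc4a1 (ENSMUSG00000006574.11, chromosome 11, 102348824 to 102366203, minus strand) encodes band 3, the chloride and bicarbonate exchanger that ties the red cell membrane to its skeleton. It was at 31.1 TPM in replicate 1 and 29.0 TPM in replicate 2, from 3668 and 3579 counts, the most counts of any of the 7 genes, on a leading transcript of 4545 nt. Its mean was 30.02 ± 1.47 TPM, at percentile 59.2 of expressed protein-coding genes, and its intervals in the pools overlapped.

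In the order of levels, Alas2, Slc4a1 and Klf1 were each apart from the next gene, with no overlap of the libraries' TPM or of the intervals within a library. Epor and Nfe2 were apart by TPM (5.76 TPM or more for Epor, 5.09 TPM or less for Nfe2), but their intervals overlapped in both libraries. Nfe2 and Gata1 changed places between the pools: Gata1 over Nfe2 was 1.06 in replicate 1 and 0.678 in replicate 2. Gata1 and Tal1 were apart, with Gata1 over Tal1 at 3.63 in replicate 1 and 2.50 in replicate 2. Slc4a1 over Epor was at 5.25 in replicate 1 and 5.03 in replicate 2, the steadiest of the 7 ratios computed between members. Not all pairs of members were computed, so this pair is not singled out among them. With 2 libraries, likeness of pattern could only be judged by distance in log2(TPM + 1). By that measure the protein-coding genes nearest Gata1 were Lbx1, Ydjc and Traf5, at distances of 0.06, 0.07 and 0.10 over 2 libraries, and 3 genes lay within 0.1. For Slc4a1, 74 genes lay that close, led by Zdhhc7, Polr2l and Rai1, so nearness on 2 libraries singles out little.

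The next comparison was pool against pool, the only one the design allows. It was made on log2 CPM (counts scaled to the library's total) after TMM scaling by edgeR over all Ensembl genes, as replicate 1 minus replicate 2. Gata1, Klf1 and Alas2 stood furthest apart between the pools, and Tal1 and Nfe2 least. Gata1 was higher in replicate 1 by 0.71 on the log2 scale (0.43 to 1.01), Klf1 by 0.55 (0.37 to 0.73) and Alas2 by 0.54 (0.45 to 0.63). Bounds in brackets are 95% exact binomial counting intervals, which cover counting error only. Slc4a1 was higher by 0.23 (0.17 to 0.30). Epor at 0.18 (-0.07 to 0.42), Tal1 at 0.05 (-0.30 to 0.40) and Nfe2 at 0.04 (-0.25 to 0.33) had intervals that held 0.

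**Figure D2:**
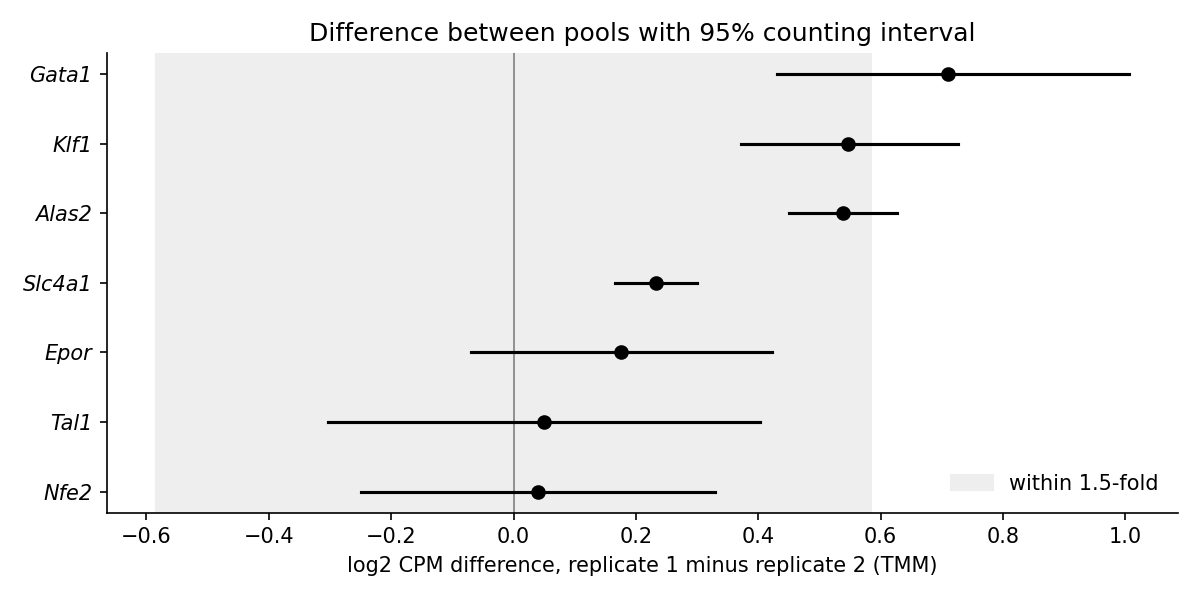
Log2 CPM difference between pools (replicate 1 minus replicate 2, TMM scaling) for 7 genes, with 95% exact binomial counting intervals as lines. Gata1 at 0.71 is the single gene beyond the grey band of 1.5-fold, and the lines of Epor, Tal1 and Nfe2 cross 0.

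The counting interval lay above 0 for 4 of 7 members, and for 26.2% of the 16860 genes whose mean count was at least 10. It lay below 0 for no member and for 27.2% of those genes, so it left out 0 for 4 of 7 members and for 53.3% of all. A difference of at least 1.5-fold towards replicate 1 was reached by 1 member, Gata1 at 1.64-fold, and by 4.65% of those genes. No member was lower in replicate 1 by 1.5-fold, against 9.96% of genes, and none differed by 2-fold either way, against 5.51%. For 1.5-fold in either direction the shares were 14.6% of all 16860 genes and 10.3% of the 9162 genes within the members' TPM range. The deposited TPM intervals of the pools were apart for 3 members (Gata1, Klf1 and Alas2) and for 35.9% of those genes. All 7 members passed the count minimum. The median difference of the members was 0.23, against -0.01 over all 16860 genes, of which 8110 were higher and 8750 lower in replicate 1. With 2 libraries of 1 group, the smallest p of an exact two-sided sign-flip test is 0.5. No p-value is therefore printed, and pool, library and any batch cannot be told apart. In tissue RNA, fewer cells of a type and less RNA per cell cannot be told apart either.

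The size of all the differences, and the sign of the smaller ones, depended on the scaling. All 7 members were higher in replicate 1 with TMM or DESeq2 size factors, 5 with total counts, 6 with deposited TPM and 3 with spike-in counts, under which Slc4a1, Epor, Nfe2 and Tal1 were at -0.02, -0.08, -0.21 and -0.20. With spike-in counts Gata1, Klf1 and Alas2 were higher in replicate 1 by 0.46, 0.29 and 0.28, and with deposited TPM by 0.60, 0.41 and 0.38. The same changes of scaling moved the median of all genes to -0.26 with spike-in counts and -0.15 with deposited TPM. The median of the members was 0.23 with TMM and -0.02 with spike-in counts. Set against the median of all genes, each member was higher in replicate 1 under each of these 5 measures. Gata1 was above that median by 0.72 with TMM and 0.72 with spike-in counts. Scalings of the counts differ by a single factor per library, which this subtraction cancels. Their likeness after it was therefore fixed in advance and is no added evidence.

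By deposited TPM, globin RNA was more abundant in replicate 1, and its sum under the other scalings is not given here. The 10 globin genes listed summed to 16701 TPM in replicate 1 and 14303 TPM in replicate 2, a ratio of 1.17. Per 1000 globin TPM, Gata1 was at 0.313 TPM in replicate 1 and 0.241 TPM in replicate 2, Klf1 at 0.934 and 0.821, and Alas2 at 2.92 and 2.63. On the same scale Slc4a1 was at 1.86 TPM in replicate 1 and 2.03 TPM in replicate 2, Epor at 0.354 and 0.403, Nfe2 at 0.295 and 0.356, and Tal1 at 0.0862 and 0.0965. Gata1, Klf1 and Alas2 were higher in replicate 1 also per unit of globin RNA, while the other 4 were lower. The part of globin RNA in these differences was not tested. Of the 8 globin genes with enough counts, 6 were higher and 2 lower in replicate 1 with TMM scaling. The embryonic genes Hbb-bh1, Hba-x and Hbb-y were higher by 0.78, 0.39 and 0.30 on the log2 scale, and the alpha genes Hba-a1 and Hba-a2, used in embryo and adult, by 0.33 and 0.24. The adult beta genes Hbb-bt and Hbb-bs were at -0.82 and -0.57, from the lower levels of 231 and 31.1 TPM. Near-identical copies such as Hba-a1 and Hba-a2, or Hbb-bt and Hbb-bs, can share reads.

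Transcript tables were examined next, because several members have more than 1 start or splice form. Klf1 and Epor each had a single transcript in the tables. For Gata1, ENSMUST00000033502.9, which starts where the promoter shown above ends, took 98.1% of the gene's TPM in replicate 1 and 100% in replicate 2. The form from a start far upstream, ENSMUST00000125418.1, was at 0.10 TPM in replicate 1 and at 0 in replicate 2. Slc4a1 was likewise carried by ENSMUST00000006749.9, the full coding form of 20 exons, at 99.6% in replicate 1 and 100% in replicate 2.

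Alas2 had 2 coding transcripts, and the difference between pools lay in the longer. ENSMUST00000066337.8 was at 34.8 TPM in replicate 1 and 22.4 TPM in replicate 2, with deposited intervals of 30.2 to 37.8 and 18.8 to 25.9 TPM that did not overlap. ENSMUST00000112715.1 was at 11.1 TPM in replicate 1 and 12.7 TPM in replicate 2, with overlapping intervals. The longer form took 71.4% and 59.6% of the gene's TPM in replicates 1 and 2, and the shorter form 22.8% and 33.7%, so the longer exceeded the shorter 3.13-fold and 1.77-fold. Within the coding sequence, the annotated forms differ by a segment of 45 nt, or 15 codons, at the start of exon 3 (GRCm38 chrX:150552959-150553003), which the shorter form lacks. The shorter form also starts 84 nt further downstream, so the estimate need not rest on the segment alone. The segment is shown in capitals with 30 bases of coding sequence of the longer form on each side.
Alas2 exon 3 segment: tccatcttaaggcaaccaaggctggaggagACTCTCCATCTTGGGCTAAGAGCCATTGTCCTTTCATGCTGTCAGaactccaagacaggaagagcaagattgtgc

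For Tal1, the counts were few and the split between starts was uncertain. ENSMUST00000030489.4, which begins at the upstream promoter shown above, took 44.9% of the gene's TPM in replicate 1 and 73.5% in replicate 2. ENSMUST00000162489.1, which begins inside the gene at position 115059508 and has the same coding length of 987 nt, took 55.1% in replicate 1 and 26.5% in replicate 2. The leading transcript therefore differed between the pools, but the deposited TPM intervals overlapped for both transcripts. ENSMUST00000161601.3, which begins at the inner promoter shown above, was listed at 0 in both libraries, with upper interval bounds of 0.412 TPM in replicate 1 and 0.339 TPM in replicate 2.

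Nfe2 had 10 transcripts in the tables, of which 6 had counts in both libraries and 4 were at 0 in both. ENSMUST00000075192.8 led with 43.98% in replicate 1 and 64.4% in replicate 2. ENSMUST00000133600.3, annotated with a coding sequence of 1188 nt against 1119 nt for the leading form, took 28.5% in replicate 1 and 12.1% in replicate 2. Their intervals in the pools overlapped for both transcripts.

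**Figure D3:**
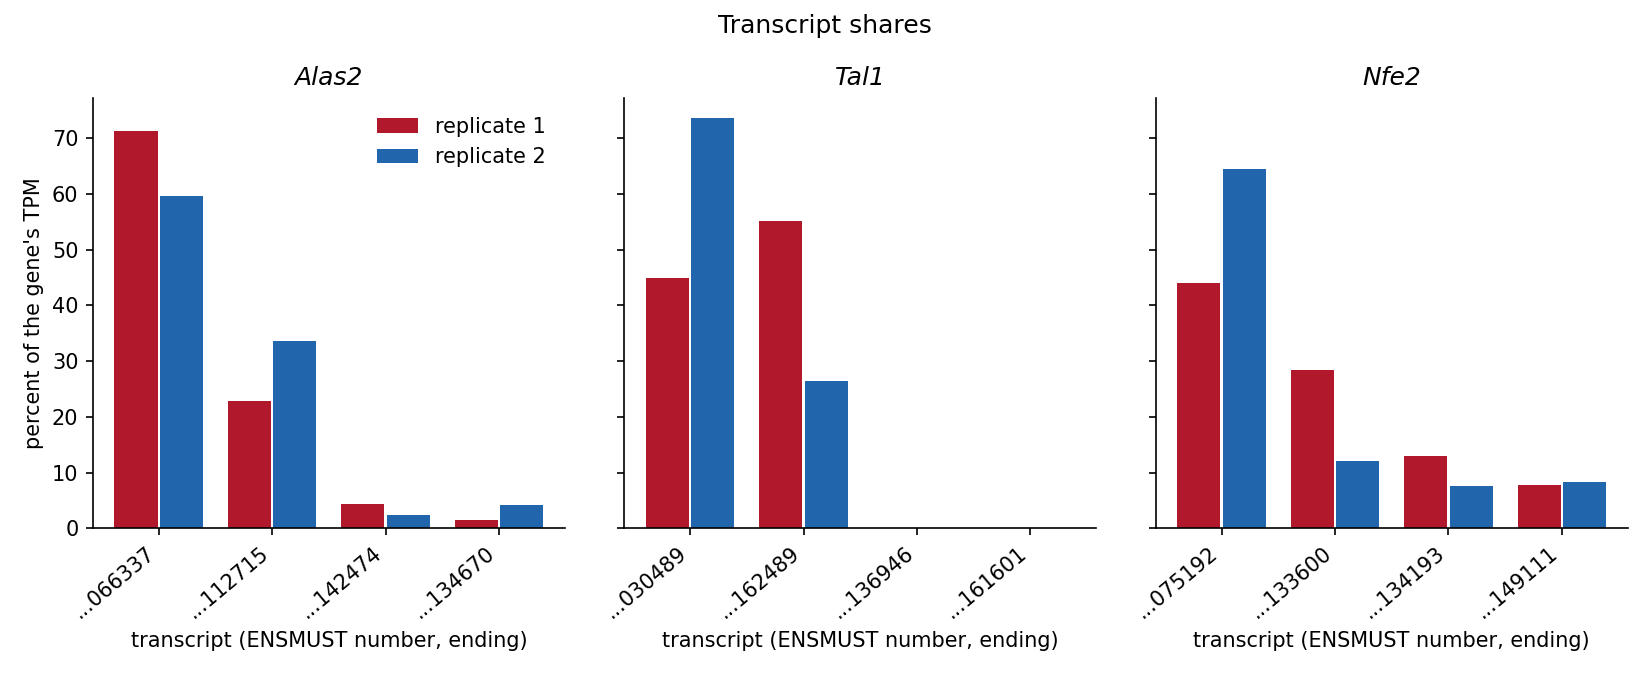
Percent of the gene's TPM taken by the 4 leading transcripts of Alas2, Tal1 and Nfe2 in replicate 1 (red) and replicate 2 (blue), with transcripts named by the end of their Ensembl number. The leading Alas2 form stands at 71.4% in replicate 1 and 59.6% in replicate 2, and the Tal1 transcripts change order between the pools.

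Each member was then set beside its relatives, called higher or lower where the deposited TPM intervals of both genes were apart in the same direction in both libraries. Gata1 was higher than Gata4, Gata5 and Gata6, factors of heart and gut among other tissues. Gata4 was at 2.30 TPM in replicate 1 and 0.39 TPM in replicate 2, Gata5 at 2.36 and 0.69 TPM, and Gata6 at 3.53 and 2.37 TPM. Like Gata1, these 3 genes were higher in replicate 1, and their part in the difference of Gata1 between pools was not tested. It was not called apart from Gata2, a progenitor and endothelial factor at 3.44 ± 0.304 TPM, or from Gata3 at 5.32 ± 0.141 TPM. Klf1 was higher than 11 of 15 Krüppel-like genes, lower than Klf3 at 22.1 ± 0.269 TPM, and not called apart from Klf10, Klf12 and Klf13, which stood at 21.5, 15.8 and 14.7 TPM. Klf2 and Klf4 were at 2.82 ± 0.318 and 0.510 ± 0.184 TPM.

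Nfe2 stood below most of its family. The broadly expressed stress-response factors Nfe2l1 and Nfe2l2 averaged 53.9 and 29.7 TPM, 10.7-fold and 5.93-fold the level of Nfe2, and the repressors Bach2 and Bach1 were at 19.3 and 11.6 TPM. Nfe2l3 was lower, at 0.395 TPM. Tal1 was lower than its close relative Lyl1, which was at 3.91 ± 0.0566 TPM and 2.77-fold higher, and Tal1 was higher than Tal2, Nhlh1 and Nhlh2, which were at 0.140, 0.0100 and 0.0850 TPM.

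Epor was higher than the blood cytokine receptor genes Csf3r and Csf2rb at 0.565 and 1.79 TPM, and lower than the growth hormone receptor gene Ghr at 12.9 ± 3.08 TPM. Alas2 was not called apart from the housekeeping enzyme gene Alas1, at 34.1 and 41.6 TPM in replicates 1 and 2: Alas2 over Alas1 was 0.52 in replicate 1 and -0.14 in replicate 2 on the log2 scale. Slc4a1 was higher than 7 of 8 genes of its family. The exception was the widely expressed anion exchanger gene Slc4a2, at 26.4 and 34.9 TPM, to which the log2 ratio of Slc4a1 was 0.23 in replicate 1 and -0.27 in replicate 2.

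**Figure D4:**
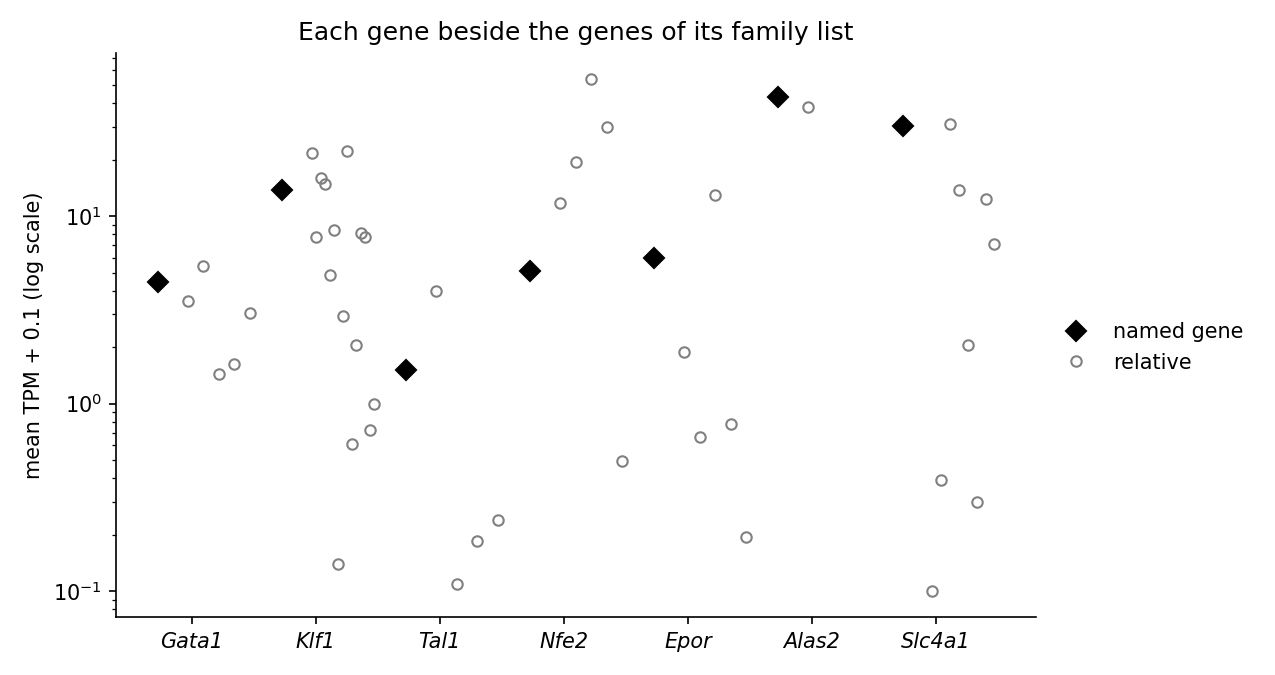
Mean TPM + 0.1 (log scale, 2 libraries) of each of 7 erythroid genes (black diamonds) and of the genes of its family list (open circles to its right). Nfe2 at 5.01 TPM lies below 4 of its 5 relatives, and Slc4a1 at 30.02 TPM lies above 7 of 8 by the interval rule.

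The partners of these factors were all present. Of 21 genes of transcription partners, 21 were at 1 TPM or more in both libraries, with a median of 8.84 TPM. The E protein genes Tcf3 and Tcf12 were at 229 ± 14.9 and 173 ± 9.43 TPM and the adaptor Ldb1 at 85.5 ± 4.84 TPM, genes that many tissues express. The blood and endothelial adaptor Lmo2 was at 25.1 ± 0.622 TPM, while the GATA1 cofactor Zfpm1 was at 1.20 ± 0.0990 TPM, the repressor Gfi1b at 3.19 ± 0.396 TPM and the corepressor Cbfa2t3 at 2.49 ± 0.481 TPM. Among small MAF genes, Mafg at 22.4 ± 1.19 TPM exceeded Mafk at 6.37 and Maff at 1.16 TPM. The median log2 difference of the partners was 0.05, with 13 higher and 8 lower in replicate 1. Past 1.5-fold were 1 gene each way: Ikzf1, at 2.66 TPM in replicate 1 and 1.87 TPM in replicate 2, was at 0.66, and Nfia, at 5.49 and 17.69 TPM, was at -1.49 (-1.62 to -1.36), a larger difference than that of any member.

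Erythropoietin signalling genes were all expressed as well, 16 of 16 with a median of 8.59 TPM. The survival gene Bcl2l1 was highest at 80.7 ± 7.83 TPM, followed by the feedback gene Socs2 at 31.4 ± 3.62 TPM, the kinase gene Pim1 at 14.5 ± 1.22 TPM and Stat5b at 12.8 ± 0.247 TPM. The ligand Epo was lowest at 1.65 ± 0.509 TPM, from 34.0 and 22.0 counts. The median log2 difference was -0.02, with 8 genes higher and 8 lower in replicate 1. Epo at 0.77 (0.01 to 1.67) and Kitl, the listed gene of the KIT ligand, at 0.69 (0.55 to 0.83) were past 1.5-fold.

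Of 26 red cell membrane genes, 23 were expressed and the median was 5.70 TPM. The highest, Add1, Slc2a1, Epb41 and Car2, at 121, 112, 92.1 and 56.8 TPM, are also used by other tissues. A more restricted gene, the Rh-associated glycoprotein Rhag, was at 4.45 ± 0.0636 TPM. Tspo2 had no counts in either library, and Car1, found in adult red cells, had 0 counts in replicate 1 and 1 in replicate 2. The 24 genes with enough counts had a median log2 difference of 0.13, with 16 higher and 8 lower in replicate 1 and none past 1.5-fold. Heme synthesis and transport genes were expressed in 18 of 18 cases with a median of 35.4 TPM, led by Tmem14c at 170 ± 5.87 TPM, and had a median difference of 0.07. Of 16 other erythroid genes, 16 were expressed, led by the antioxidant enzyme gene Prdx2 at 1020.4 TPM and the mitophagy gene Bnip3l at 296 TPM. The lowest of them was Trim10 at 4.56 TPM, and their median difference was 0.04. How much of their RNA came from erythroid cells was not tested.

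Markers of other cells that can use these factors were measured beside them. Endothelial genes were expressed in 9 of 9 cases, led by Egfl7 at 81.2 TPM and summing to 214 TPM in replicate 1 and 222 TPM in replicate 2, with a median log2 difference of 0.11. Megakaryocyte and platelet genes were expressed in 7 of 10 cases, led by the chemokine Pf4 at 26.1 and 33.9 TPM. They summed to 42.6 TPM in replicate 1 and 54.3 TPM in replicate 2. Their median difference was -0.12, with 3 higher and 6 lower in replicate 1. Gp1ba was past 1.5-fold at -1.79 (-3.13 to -0.96), from only 10 and 45 counts, at 0.14 and 0.63 TPM. Blood progenitor genes were expressed in 6 of 8 cases and summed to 63.7 and 68.8 TPM, with a median difference of -0.06. Most of these sums was Cd34, at 43.2 and 43.9 TPM, so they are no measure of progenitor cells. Flt3 had 3 and 5 counts. Macrophage genes were expressed in 5 of 9 cases and summed to 21.7 and 28.1 TPM. Their median difference was -0.32, with 3 higher and 6 lower in replicate 1. C1qc at -0.91 and Adgre1 at -0.67, the latter from 40 and 74 counts, were past 1.5-fold. The highest macrophage gene, C1qb, was at 0.14. None of 7 mast cell genes was expressed: 5 had no counts in either library, Cpa3 had 2 counts in replicate 1 and 1 in replicate 2, and Ms4a2 had 2 counts in replicate 1 and 0 in replicate 2. A count of 0 allows up to 3 counts, or 0.0771 CPM in replicate 1 and 0.0706 CPM in replicate 2. The 5 limb mesenchyme genes were all expressed, with a median of 106 TPM. How much of Gata1, Tal1 and Nfe2 RNA came from cells other than erythroid cells was not tested.

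**Figure D5:**
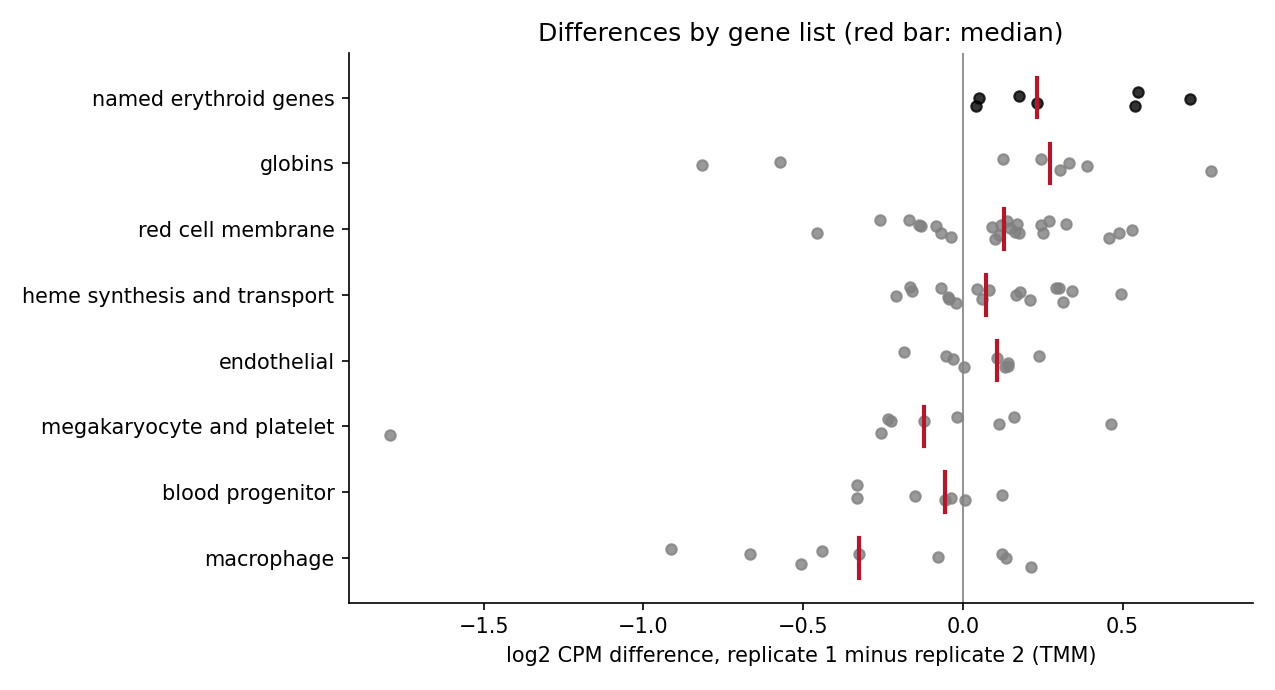
Log2 CPM difference (replicate 1 minus replicate 2) of genes whose mean count was at least 10, for the 7 named erythroid genes (black, top) and for 7 gene lists (grey), each with its median as a red bar. The median is 0.23 for the named genes and 0.27 for globins, against -0.12 for megakaryocyte and platelet genes and -0.32 for macrophage genes. Between them lie red cell membrane at 0.13, endothelial at 0.11, heme synthesis and transport at 0.07 and blood progenitor genes at -0.06.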

How the data were processed

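Per the labels' protocols, RNA was extracted by the mirVana method, and a SMARTer Ultra Low RNA kit manual is linked. Per the sample text files, the authors quantified each library from transcriptome alignments on mm10 with GENCODE M4. Which aligner and quantifier they ran was not given in the sources used here. The deposited tables hold expected counts, TPM over all rows with interval bounds of unstated level, a posterior mean TPM, and the percent of a gene's TPM per transcript. GENCODE M21 (GRCm38) supplied symbols and coordinates here and named 42462 of 43346 Ensembl rows.

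Here, expected counts were rounded for edgeR 4.0.16 (R 4.3.3; TMM, prior count 2) and DESeq2 1.42.0 (size factors). Spike-in RNAs (96 rows) took 3.89% and 3.45% of counts in replicates 1 and 2 and stayed out of library sizes. Python 3.11.15, scipy 1.17.1, pandas 2.3.3, numpy 2.4.6 and matplotlib 3.10.9 did the rest. The members and lists were chosen with earlier results of these data known. Named besides the members were relatives and partners, up to 4 highest and the lowest genes of other lists, the 3 nearest genes, and overlapping genes. Beyond this rule, Rhag, Hba-a1, Hbb-bt, Hbb-bs, Kitl, Gp1ba, Adgre1, Car1, Cpa3 and Ms4a2 were named after their values were seen. Some genes of the lists are counted but not reported here by name.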

Additional observations from a re-analysis of the deposited data

How the results depend on the processing

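The number of members past 1.5-fold between pools was 1, and it was 0 with spike-in counts as the scaling and 0 at a 2-fold threshold. It was 1 with DESeq2 size factors, total counts, deposited TPM and no count minimum. All 7 members were expressed also at 0.5 TPM, with posterior mean TPM and in either library alone, and 6 were at 2 TPM. The median level of the members was 5.84 TPM, and 5.76 to 5.92 TPM with either replicate left out. Posterior mean TPM put Nfe2 at 5.68 TPM and Tal1 at 1.52 TPM, and put the leading forms of Gata1 and Slc4a1 at 93.8% and 95.3%. Shares moved further for Nfe2 and Tal1. As a mean of both libraries, ENSMUST00000075192.8 of Nfe2 went from 54.2% to 41.2%. ENSMUST00000030489.4 of Tal1 went from 59.2% to 51.2%. In replicate 1 the posterior means put ENSMUST00000162489.1 at 42.3% and ENSMUST00000030489.4 at 41.2%, so the Tal1 forms were nearly level there. No paired analysis was possible because there is 1 group. Counts of 130 to 248 limit the precision for Tal1, Nfe2 and Gata1.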
